A study of Mus musculus with 9 samples.

Results

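The 53 interferon-stimulated and guanylate-binding genes described here were taken by symbol from a fixed list and looked up in ATAC-seq peak lists of mouse B16 melanoma cells. All 53 names had a match in the RefSeq gene table of GRCm38.p6, out of 21890 genes considered, which are the protein-coding genes and the members. Of the members, 50 were annotated as protein-coding and 3 (Mx1, Mx2 and Oas1b) as transcribed pseudogenes, and 8 were guanylate-binding genes (Gbp2 to Gbp9). ATAC-seq cuts DNA where chromatin is accessible, and a peak marks a stretch with more cuts than its surroundings. There were 9 libraries in 3 groups of 3, each from B16 or B16-derived cells that were injected into mice and sorted from tumours taken on day 15. B16_IFNg is the B16 line kept under interferon gamma before injection, for 2 weeks in replicates 1 and 2 and for 3 weeks in replicate 3. Res499 is a line derived from B16, labelled 499, that resists checkpoint blockade, with no interferon treatment. B16_untreated is the parental line with no treatment. The labels do not say that the replicates came from separate mice, and p-values then measure the spread between these libraries, which may be technical.

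Interferons bind receptors that act through JAK kinases. Type I interferon acts mainly through the interferon-stimulated response element (ISRE) in its target genes, and interferon gamma through the gamma-activated site (GAS). The genes so induced block viral entry, replication and translation, tag proteins with the ubiquitin-like modifier ISG15, sense viral nucleic acids, or, for the guanylate-binding proteins, attack vacuoles that hold pathogens. In tumours the same genes mark past or ongoing interferon exposure and are read as interferon signatures.

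A promoter sequence (250 bases before to 50 after the start, RefSeq, GRCm38.p6) was at hand for 37 of the 53 members. Those of 6 members that span the range of the data are printed 5′ to 3′ on the strand of the gene, with matches to the ISRE core (GAAANNGAAA on either strand) in capitals. Trim21 (chr7:102565433-102565732, minus strand) was the 1 member open in every library, and Bst2 (chr8:71537423-71537722, minus strand) and Herc6 (chr6:57580742-57581041, plus strand) were open in 8 of 9. Ifit1 (chr19:34640639-34640938, plus strand) was open in 1 library. Isg15 (chr4:156200769-156201068, minus strand) and Gbp2 (chr3:142620413-142620712, plus strand) were open in none.
Trim21: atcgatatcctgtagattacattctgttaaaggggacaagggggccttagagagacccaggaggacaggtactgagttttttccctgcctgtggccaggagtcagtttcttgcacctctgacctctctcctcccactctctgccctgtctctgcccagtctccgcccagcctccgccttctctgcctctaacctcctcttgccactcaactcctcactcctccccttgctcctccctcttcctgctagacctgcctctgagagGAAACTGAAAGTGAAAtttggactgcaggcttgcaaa
Bst2: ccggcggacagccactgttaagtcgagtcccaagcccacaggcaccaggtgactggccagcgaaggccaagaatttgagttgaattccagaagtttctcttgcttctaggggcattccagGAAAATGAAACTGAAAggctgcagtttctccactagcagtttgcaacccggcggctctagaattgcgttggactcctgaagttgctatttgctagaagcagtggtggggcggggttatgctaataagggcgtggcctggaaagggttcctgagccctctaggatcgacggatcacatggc
Herc6: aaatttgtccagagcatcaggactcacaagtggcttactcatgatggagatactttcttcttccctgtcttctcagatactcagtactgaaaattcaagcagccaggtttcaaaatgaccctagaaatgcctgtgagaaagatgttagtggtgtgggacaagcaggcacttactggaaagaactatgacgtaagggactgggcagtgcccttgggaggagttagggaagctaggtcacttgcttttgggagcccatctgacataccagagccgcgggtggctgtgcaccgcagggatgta
Ifit1: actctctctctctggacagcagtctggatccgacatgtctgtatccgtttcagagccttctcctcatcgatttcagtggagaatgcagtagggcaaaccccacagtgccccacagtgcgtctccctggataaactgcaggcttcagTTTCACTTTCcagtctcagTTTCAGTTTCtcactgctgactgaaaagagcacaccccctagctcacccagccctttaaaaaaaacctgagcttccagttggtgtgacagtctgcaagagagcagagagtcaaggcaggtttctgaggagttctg
Isg15: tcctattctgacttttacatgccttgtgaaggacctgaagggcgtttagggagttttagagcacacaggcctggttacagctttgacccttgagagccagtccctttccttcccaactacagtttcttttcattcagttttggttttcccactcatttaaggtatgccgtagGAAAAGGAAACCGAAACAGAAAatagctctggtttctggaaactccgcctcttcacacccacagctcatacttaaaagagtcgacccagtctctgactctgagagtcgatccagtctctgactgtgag
Gbp2: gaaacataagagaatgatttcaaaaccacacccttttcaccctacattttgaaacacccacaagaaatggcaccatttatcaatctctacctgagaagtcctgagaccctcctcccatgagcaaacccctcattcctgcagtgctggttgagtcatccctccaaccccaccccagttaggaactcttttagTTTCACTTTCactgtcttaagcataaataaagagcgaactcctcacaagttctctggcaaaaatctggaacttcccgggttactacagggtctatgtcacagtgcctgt
Trim21 held 2 overlapping ISRE cores, whose first bases lay 14 and 20 bases after the start, and Bst2 held 2 overlapping cores at -130 and -124. Isg15 held 3 overlapping cores at -78, -72 and -66, the largest number among the 37. The cores of Ifit1 lay at -104 and -85 and that of Gbp2 at -59, all on the other strand. Herc6 held no match to the core and no match to GAS (TTCNNNGAA). Among these 6 chosen sequences the core does not sort by openness. Both Isg15 and Gbp2, open nowhere, carry the core that Herc6, open in 8 libraries, does not. Counts over all 37 members are given further below.

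The deposited lists held 11183 to 16240 peaks in B16_IFNg, 9221 to 15396 in Res499 and 15045 to 25374 in B16_untreated, and the relative depth recovered from them was 7.59 to 9.17, 8.68 to 11.1 and 8.14 to 10.8 fragments per kb of the effective genome. Because the lists differ in length, each library was represented by its 9214 most significant peaks, the length of the shortest list, ranked by the authors' −log10 p with rank 1 the most significant. A gene end was called open in a library when such a peak came within 1 kb of either annotated end of the gene. Openness is a property of the sorted population, in which fewer cells with open chromatin and less opening per cell cannot be told apart. Of markers of other cells that a tumour could hold, 11 of 12 leukocyte, 5 of 5 endothelial, 4 of 5 fibroblast and 4 of 4 keratinocyte genes were open in no library. The leukocyte gene Spi1 was open in 1 Res499 library, and the matrix gene Col1a1 in 2 B16_IFNg, 1 Res499 and 0 B16_untreated libraries. Among melanocyte genes, Mitf and Pmel were open in all 9 libraries, while Sox10 and Mlana were open in none. Of the other 3 markers, Tyr was open in 3 and Dct in 6 libraries, and Tyrp1 in 2 B16_IFNg, 0 Res499 and 3 B16_untreated libraries.

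Few of the interferon-stimulated genes had an open end in all libraries. Only Trim21 did, 1 of 53 members (1.89%), against 20.1% of all 21890 genes. No open end in any library was found for 30 members (56.6%), close to the 55.8% of all genes. The remaining 22 members (41.5%) were open in 1 to 8 libraries, against 24.1% of all genes. Within these, 5 members (Bst2, Herc6, Ifit2, Tor3a and Usp18) were open in 7 or 8 libraries and 4 (Dtx3l, Ifi27, Lgals3bp and Oas1b) in 4 to 6. A further 13 members (24.5%) were open in 1 to 3 libraries, a class that held 7.86% of all genes. Set beside all genes, the members' open ends were thus shared by some libraries and seldom by all 9, a description of the counts for which no test was made. A comparison with genes that hold as few promoter CpG sites is given further below.

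**Figure D1:**
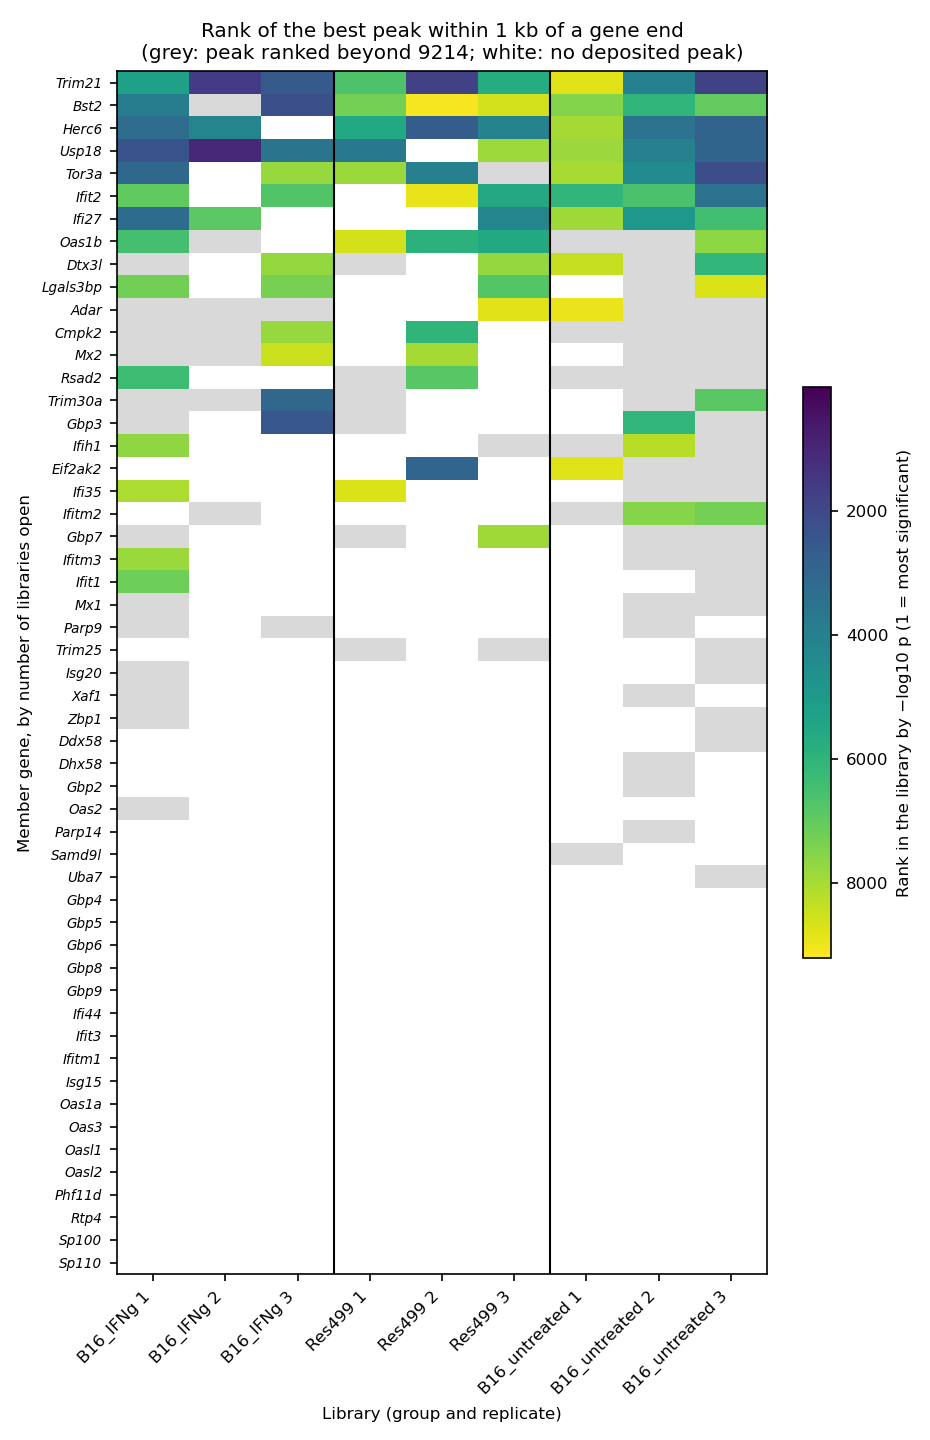
Rank of the best peak at the ends (within 1 kb) for each of the 53 members (rows, ordered by the number of open libraries) in the 9 libraries (columns, by group and replicate). Colour gives ranks 1 to 9214, grey a deposited peak ranked beyond 9214 and white no deposited peak. Trim21 is the 1 row with colour in every column, and the lowest 17 rows have no peak in any library.

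**Figure D2:**
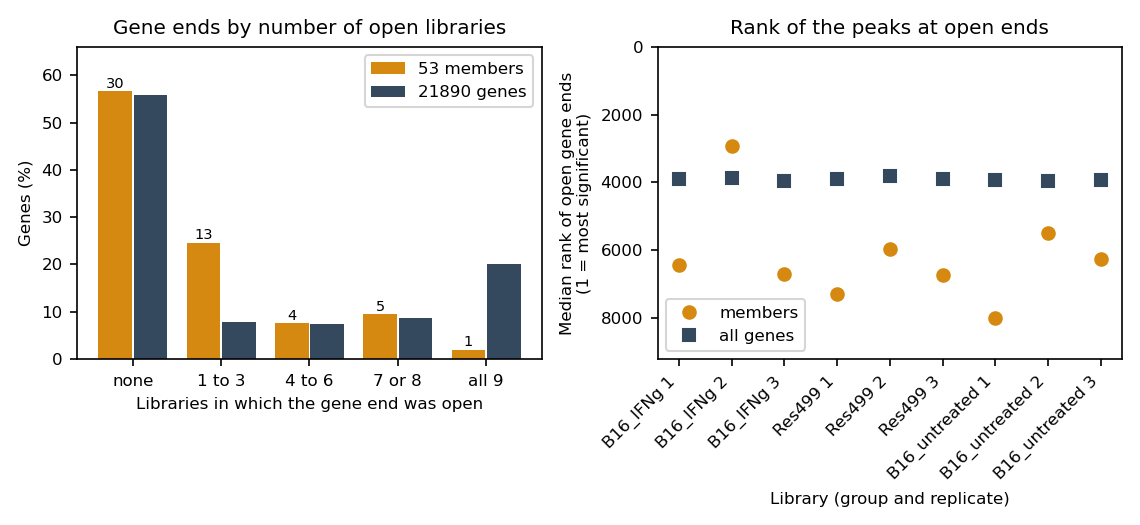
Left, percentage of the 53 members (orange, with their number above each bar) and of all 21890 genes (dark) whose end was open in none, 1 to 3, 4 to 6, 7 or 8, or all 9 libraries. Right, median rank of the best peak at open ends in each library, for members and for all genes, on an axis with the most significant peaks at the top. Members are rare among genes open in all 9, and their median rank is the weaker one in 8 of 9 libraries.

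Open ends of members also ranked low. Over the 89 open ends counted across libraries, the median rank was 6580, against 3898 for the open ends of all genes. Beyond rank 4607, the middle of the 9214 peaks, lay 60 of the 89 (67.4%), against 41.7% for all genes. None of the 89 was among the best 10% of the peaks, which held 12.2% of the open ends of all genes, and the best rank of any member was 1042, reached by Usp18 in B16_IFNg replicate 2. The number of reads at the summit, recovered from the authors' fold enrichment and −log10 p, was correspondingly small. Its median over open members was 12.5 to 19 in the 6 B16_IFNg and Res499 libraries and 22 to 27.5 in B16_untreated, against medians over all open genes of 15 to 25 and 33 to 37. B16_IFNg replicate 2 is the exception, with a median of 17.5 for its 4 open members and 16 for all genes.

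By library, the number of open members was 14, 4 and 11 in B16_IFNg, 7, 10 and 11 in Res499 and 10, 10 and 12 in B16_untreated. The groups overlapped, and B16_IFNg held both the highest and the lowest count. The mean was 9.67 ± 5.13 open members in B16_IFNg, 9.33 ± 2.08 in Res499 and 10.7 ± 1.15 in B16_untreated (SD, n = 3 each), so that the groups differed by less than the spread within B16_IFNg. All genes were open in 32.4% to 34.7% of cases in every library. A count among few genes varies more than a share over all genes, so these spreads cannot be compared directly, and no test was made. Replicate 2 of B16_IFNg, with 4 open members, had the lowest relative depth of the 9 libraries (7.59). Replicate 3 of B16_IFNg had 11 open members at a depth of 7.82, and Res499 replicate 1 had 7 at a depth of 10.9. The part of depth in these counts was not tested.

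**Figure D3:**
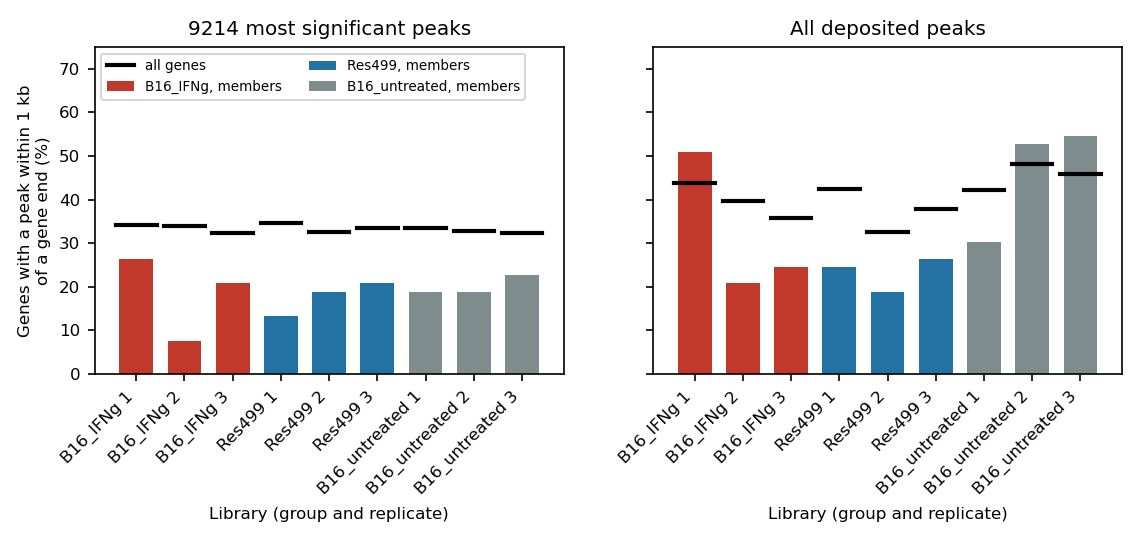
Percentage of the 53 members with an open end in each library, a peak no farther than 1 kb from it (bars, coloured by group), with the percentage over all 21890 genes as a black line, among the 9214 most significant peaks (left) and all deposited peaks (right). On the left every bar is below its line. On the right, bars exceed their lines in B16_IFNg replicate 1 and B16_untreated replicates 2 and 3, the 3 longest lists.

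Over all deposited peaks the picture depended on list length. Open members then numbered 27, 11 and 13 in B16_IFNg, 13, 10 and 14 in Res499 and 16, 28 and 29 in B16_untreated. In the 3 longest lists the share of members (50.9% in B16_IFNg replicate 1, 52.8% and 54.7% in B16_untreated replicates 2 and 3) passed that of all genes (43.7%, 48.1% and 45.8%). In the other 6 libraries it stayed below. In those 3 lists the count with the 9214 best peaks had been 14, 10 and 12, so many of their member peaks ranked beyond 9214. Members with no peak at an end in any full list numbered 17 (32.1%), against 49.4% of all genes. They were Isg15, Ifit3, Ifi44, Ifitm1, Oas1a, Oas3, Oasl1, Oasl2, Phf11d, Rtp4, Sp100, Sp110, Gbp4, Gbp5, Gbp6, Gbp8 and Gbp9. The other 13 members with no open end had a peak beyond rank 9214 in 1 to 3 libraries, namely Ddx58, Dhx58, Gbp2, Isg20, Mx1, Oas2, Parp9, Parp14, Samd9l, Trim25, Uba7, Xaf1 and Zbp1.

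Trim21 and Bst2, both antiviral effectors, were the members with a peak at an end in every deposited list. Trim21, an antibody receptor inside cells and ubiquitin ligase, had ranks of 5256, 1652 and 2611 in B16_IFNg, 6631, 1794 and 5705 in Res499, and 8786, 4038 and 1801 in B16_untreated. Strong and weak ranks occurred in every group, and the groups overlapped. The authors' fold enrichment of that peak was 7.98, 9.16 and 7.85 in B16_IFNg, 6.41, 7.63 and 5.74 in Res499, and 5.94, 11.5 and 11.6 in B16_untreated. The peak lies over the start of the gene and touched the printed promoter in all 9 libraries. Bst2 encodes tetherin, which holds budding virus on the cell surface. Its end ranked 3904, 9769 and 2245 in B16_IFNg, 7298, 9083 and 8576 in Res499, and 7502, 6079 and 7003 in B16_untreated. The peak was deposited in every library, and only that of B16_IFNg replicate 2, at rank 9769, fell outside the 9214 used. Both better and worse ranks than those of B16_untreated occurred in B16_IFNg, and 2 of 3 Res499 ranks were worse than every B16_untreated rank.

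The Ifitm genes encode small membrane proteins that block the fusion of viruses with endosomes. Ifitm1 was open in no library. Ifitm3 was open in 1, B16_IFNg replicate 1 (rank 7822). Ifitm2 was open in B16_untreated replicates 2 and 3, at ranks 7553 and 7271, and in none of the other 7 libraries. Its full lists added weak peaks in B16_IFNg replicate 2 (rank 10254) and B16_untreated replicate 1 (rank 13904) and none in Res499. The mean rank, with rank 9215 where there was no call, was 9215 in B16_IFNg and Res499 together and 8013 in B16_untreated (exact permutation test with 84 arrangements, two-sided, p = 0.0833, adjusted p = 1). That pattern rests on the window. A peak over the RefSeq promoter of Ifitm2, inside the annotated gene, reached rank 7160 in B16_IFNg replicate 1 and 11346 in Res499 replicate 1 and lay just outside the 1 kb window there.

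The ISG15 system tags proteins with a ubiquitin-like modifier, and its 4 members parted. Usp18 removes ISG15 from proteins and dampens signalling at the type I interferon receptor, and Herc6 is the ligase that attaches ISG15 in mice. Isg15 itself and Uba7, its activating enzyme, were open in no library. Usp18 had ranks of 2390, 1042 and 3559 in B16_IFNg, 3737, none and 7874 in Res499, and 7846, 4002 and 2988 in B16_untreated. Every Res499 library ranked worse than every B16_IFNg library, and Usp18 was the 1 of 23 members tested with that pattern, against 4.42% of all 9674 genes with an open end in any library. The B16_untreated ranks overlapped those of both other groups. A second site of Usp18 lay 1145 bp beyond its other annotated end (chr6:121272062-121272787, GRCm38). There the ranks were 2777, 6677 and 3183 in B16_IFNg, 11716, 2881 and 2420 in Res499, and 2975, 3762 and 1716 in B16_untreated. Res499 replicate 2, which lacked a peak at the gene end, had a strong one at this site.

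Herc6 ranked 3282, 4183 and none in B16_IFNg, 5591, 2730 and 4116 in Res499, and 7989, 3513 and 2949 in B16_untreated. The groups overlapped. A site inside Herc6, 22970 bp from its nearest end (chr6:57641801-57642166), ranked 2204, 2430 and none in B16_IFNg, 789, 7836 and 2897 in Res499, and 3191, 3181 and 5786 in B16_untreated. B16_IFNg replicate 3 lacked both Herc6 peaks in its full list. Isg15 had no peak at its ends in any full list. Nearby peaks 1227 bp and 2255 bp away lay at the ends of the neighbouring genes Agrn and Perm1.

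Of the Ifit genes, whose products bind viral RNA and block its translation, Ifit2 was open in 7 libraries, Ifit1 in 1 and Ifit3 in none. Ifit2 ranked 6974, none and 6707 in B16_IFNg, none, 8905 and 5548 in Res499, and 6050, 6580 and 3485 in B16_untreated. All 3 B16_IFNg libraries ranked worse than all 3 B16_untreated libraries, which 1 of 23 members did (Ifit2), against 3.45% of all genes tested. Res499 overlapped B16_untreated through its replicate 3. The mean rank was 7760.7 in B16_IFNg and Res499 together and 5371.7 in B16_untreated (two-sided exact permutation test, p = 0.0714, adjusted p = 1). Ifit1 was open in B16_IFNg replicate 1 at rank 7163, had a deposited peak at rank 14869 in B16_untreated replicate 3, and had none elsewhere, Res499 included. That peak is shared with an end of Ifit1bl2. A region at the end of the related gene Ifit1bl1, 12125 bp from Ifit1, was open in all 9 libraries. The members of this family are close copies. Whether reads that map to several copies were kept is not given in the sources used here, and the part of such a filter in missing peaks was not tested. The same holds for the Oas, Ifitm, Gbp and Sp100 families.

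The Oas family is named for enzymes that make the messenger of RNase L. Of its 6 genes 5 were open in no library (Oas1a, Oas2, Oas3, Oasl1 and Oasl2). Oas1b ranked 6497, 12333 and none in B16_IFNg, 8632, 5911 and 5588 in Res499, and 9928, 9377 and 7644 in B16_untreated. Its end was open in all 3 Res499 libraries, 1 B16_IFNg library and 1 B16_untreated library, and the ranks overlapped. The peak is shared with the end of Oas1c and cannot be assigned to either. The Mx family is named for dynamin-like antiviral GTPases, and both of its members here are annotated as transcribed pseudogenes. Mx2 was open in 1 B16_IFNg, 1 Res499 and 0 B16_untreated libraries, and Mx1 in none.

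The 6 sensors and their partners had 6 open calls of 54 possible (11.1%), against 33.3% over all genes. Ddx58 (RIG-I), Dhx58 (LGP2) and Zbp1, a sensor of Z-form nucleic acids, were open in no library. Ifih1 (MDA5) was open in 1 B16_IFNg, 0 Res499 and 1 B16_untreated libraries. Adar, which edits double-stranded RNA, had its end deposited at ranks 11373, 12512 and 10187 in B16_IFNg, none, none and 8814 in Res499, and 8947, 11633 and 17341 in B16_untreated. The Adar peak was weak wherever it was called. Eif2ak2 (PKR), which halts translation on binding double-stranded RNA, had no peak at an end in B16_IFNg, 1 peak in Res499, at rank 3000 in replicate 2, and peaks at ranks 8758, 10071 and 9762 in B16_untreated. Over the full lists Eif2ak2 was thus deposited in all B16_untreated and no B16_IFNg libraries, as were 0.525% of all genes. Its peak is shared with the predicted gene Gm26637.

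The 8 guanylate-binding genes stand in 2 clusters and had 3 open calls of 72 possible (4.17%), against 33.3% over all genes. The share was 9.26% in the Oas family (5 of 54), and 11.1% in both the Ifitm (3 of 27) and Mx (2 of 18) families. It was 29.6% in the Ifit family (8 of 27), near that of all genes. Above that of all genes were the Trim genes with 40.7% (11 of 27) and the ISG15 system with 44.4% (16 of 36). These are counts of few genes, and the differences were not tested. On chromosome 5, Gbp4, Gbp6, Gbp8 and Gbp9 had no peak at an end in any full list, and 3 of the 4 had none within 20 kb either. On chromosome 3, Gbp3 and Gbp7 were open in 3 library calls of the cluster's 36, and Gbp2 and Gbp5 in none. Gbp3 ranked 11514, none and 2504 in B16_IFNg, 10944, none and none in Res499, and none, 6114 and 12518 in B16_untreated. These peaks lay 503 bp or more inside the gene and did not touch the promoter window of the gene. Gbp7 was open in Res499 replicate 3 alone, at rank 7910. At its ends Gbp2 had 1 deposited peak, at rank 23508 in B16_untreated replicate 2. Another peak of that library lay 2345 bp from an end of Gbp2, at rank 21343. No group had the Gbp genes open in common.

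Among members with other roles, Ifi27, a small hydrophobic protein, ranked 3269, 6900 and none in B16_IFNg, none, none and 4176 in Res499, and 7890, 4904 and 6412 in B16_untreated. It was open in 2 B16_IFNg, 1 Res499 and 3 B16_untreated libraries, with overlapping ranks, at an end shared with Ifi27l2a. Tor3a, an ATPase of the endoplasmic reticulum, ranked 3102, none and 7802 in B16_IFNg, 7840, 4005 and 9319 in Res499, and 7992, 4463 and 2188 in B16_untreated. Both were open in all 3 B16_untreated libraries and in part of the other groups, with overlapping ranks. Lgals3bp, a secreted glycoprotein, was open in 2 B16_IFNg, 1 Res499 and 1 B16_untreated libraries, and Ifi35 in 1 B16_IFNg, 1 Res499 and 0 B16_untreated libraries. Dtx3l, a ubiquitin ligase, was open in 1 B16_IFNg, 1 Res499 and 2 B16_untreated libraries. Its peak lies 523 bp beyond the start of Dtx3l and inside its partner gene Parp9, of the ADP-ribosyltransferase family, 1080 bp from the end of Parp9 and so outside that gene's window. Rsad2 (viperin), which makes a chain-terminating nucleotide, and its neighbour Cmpk2, a nucleotide kinase, were each open in 1 B16_IFNg, 1 Res499 and 0 B16_untreated libraries. They shared Res499 replicate 2 but not the B16_IFNg library. Trim25, a ubiquitin ligase that acts on RIG-I, was open in none, and Trim30a in 1 B16_IFNg, 0 Res499 and 1 B16_untreated libraries.

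The comparison of B16_IFNg with B16_untreated asks what long exposure to interferon gamma leaves in the chromatin of these genes. No member was open in all B16_IFNg and no B16_untreated libraries, against 0.174% of all genes, and no member showed the opposite pattern, against 0.123%. A better rank in every B16_IFNg library than in every B16_untreated library was found for 0 of 23 members, against 4.56% of genes tested. In Res499 against B16_untreated, 0 members were open in all of the first and none of the second, against 0.343% of all genes, and 0 members the reverse, against 0.292%. Better ranks throughout were found for 0 of 23 members, against 5.38%, and worse ranks throughout for 0 of 23, against 4.81%. In Res499 against B16_IFNg the counts of members were 0 for open in all of the first only (0.183% of all genes), 0 for the reverse (0.224%), and 0 for better ranks throughout (4.32%). At these shares among all genes, 0 or 1 of 53 or 23 members is near the background, and the counts are no result about the members. An exact test of 3 against 3 libraries cannot go below p = 0.1, so no p is given for these pairs.

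B16_IFNg and Res499 together were set against B16_untreated, where an exact test over 84 choices of libraries can reach p = 0.0119. No member was open in all 6 and none of the 3 (0.0274% of all genes), or in none of the 6 and all 3 (0.0228%). No member ranked better in all 6 than in all 3 (0.961% of genes tested) or worse (0.982%). The mean rank of 0 of 23 members passed a Benjamini-Hochberg adjusted p of 0.05 in the two-sided exact permutation test, and 0.0% of the 9674 genes did. At an unadjusted p under 0.05 the counts were 0 of 23 members and 356 genes (3.68%). Ifit2 (p = 0.0714) and Ifitm2 (p = 0.0833) had the lowest exact p, and the other 21 members had an exact p of 0.31 to 1. The 30 members with no open end could not be tested. With 9 libraries the adjustment can be passed only if 2304 or more genes reach the smallest p, so the absence of calls does not show that ranks were equal.

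Sites away from the gene ends were sought within 20 kb of each gene. A peak in all 9 libraries was found there for 12 members (22.6%), against 35.7% of all genes, and none in any library for 17 (32.1%), against 37.0%. Much of this belonged to neighbours. Of 59 distinct regions, 23 touched the end of a member, 21 lay within 1 kb of the end of another coding gene and 15 lay farther from any coding end. Examples of the neighbours are Ddx24 near Ifi27, with ranks of 50 to 519 over the 9 libraries, Rpl27 near Ifi35, and the shared end of Gpatch11 and Heatr5b near Eif2ak2. With peaks at the ends of other genes set aside, 2 members (Trim21 and Usp18) had a peak in all 9 libraries, 3.77% against 25.1% of all genes, and 24 (45.3%) had none, against 44.1%. None of the 15 regions far from coding ends was open in all 9 libraries.

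The lowest p-values at sites far from coding ends were in the cluster of Sp110 and Sp100, which encode nuclear body proteins. Neither gene had a peak at an annotated end in any library. All regions of the 9 libraries (15668 after merging) were ranked and tested as the gene ends were, a test added after the data were seen. Of 41 regions at member ends or far from coding ends, 1 had an exact p under 0.05, against 508 of 15668 (3.24%), and 0 regions passed the adjusted threshold. That region lies inside Sp100 (chr1:85703430-85704082), 5916 bp from its nearest end. Its ranks were 2873, 6515 and 5106 in B16_IFNg, 4076, 8052 and 3094 in Res499, and 9916, 8581 and 6770 in B16_untreated. All 3 B16_IFNg libraries ranked better than all 3 B16_untreated libraries, as in 1 of 41 member regions and 3.1% of all regions, and Res499 overlapped B16_untreated through replicate 2. The mean rank of the 6 libraries minus that of B16_untreated was -3236 places, a better rank in the 6 (two-sided exact permutation test, p = 0.0476, adjusted p = 1).

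Inside Sp110, 17485 bp from its nearest end and also within the annotated span of Sp140 (chr1:85591040-85593365), the ranks were 7213, 7297 and none in B16_IFNg, 2895, 2627 and 3874 in Res499, and 8640, 11469 and 13308 in B16_untreated. A further site 3707 bp beyond an end of Sp110 and inside Sp140 (chr1:85614557-85614831) ranked 7353, 4145 and none in B16_IFNg and 4075, 4486 and 5525 in Res499. In B16_untreated this site had 1 weak deposited peak, at rank 12363 in replicate 1. At both sites all Res499 libraries ranked better than all B16_untreated libraries. That was so for 2 of 41 member regions and for 3.63% of all regions, so the count is near the background. At the first site both B16_IFNg peaks ranked worse than every Res499 peak, and at the second the B16_IFNg ranks overlapped those of Res499. The exact p for both groups against B16_untreated was 0.0833 at the first site and 0.0714 at the second (two-sided permutation tests, adjusted p = 1 for both). The same direction at 3 sites of 1 gene cluster is not 3 independent results.

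**Figure D4:**
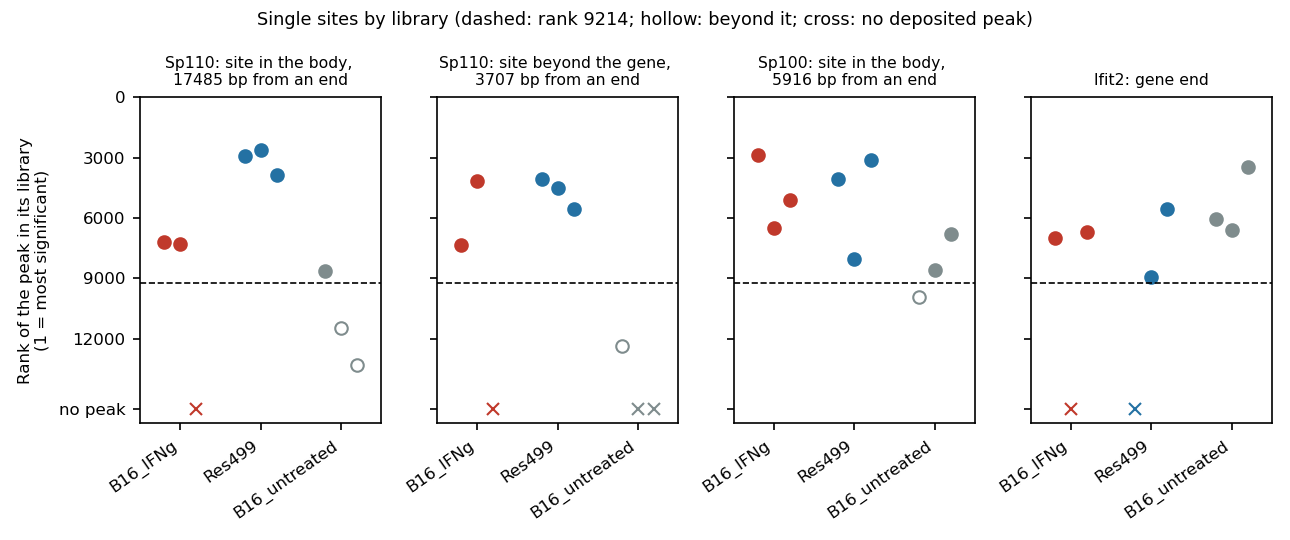
Rank of the peak in each library (points, by group; the y axis has the most significant ranks at the top) at the site inside Sp110, the site beyond Sp110, the site inside Sp100 and the gene end of Ifit2. Filled points are within the 9214 used, hollow points beyond them (dashed line) and crosses mark no deposited peak. Res499 points lie above all B16_untreated points at both Sp110 sites, and at Ifit2 the B16_IFNg points lie below those of B16_untreated.

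Promoter sequence was a feature that the choice of members did not use. The ISRE core occurred in 18 of the 37 members with a sequence (48.6%), against 3.4% of 17492 genes, and GAS in 9 (24.3%), against 7.78%. A match is a string of letters and no evidence of binding. The core was found in Trim21, in 10 of 17 members open in 1 to 8 libraries (58.8%) and in 7 of 19 open in none (36.8%). Members with more than 1 core were Bst2, Gbp3, Ifit1, Ifit3, Ifitm3, Isg15, Oas1a and Trim21, and they run from open in all libraries to open in none. In 9 members with the core (Ddx58, Gbp2, Gbp3, Gbp5, Ifit3, Ifitm3, Isg15, Oas1a and Oas3) no deposited peak of any library touched the promoter sequence. Of 18 members with a sequence and an open end, 13 had a peak that touched the promoter itself.

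The members' promoters held few CpG sites. Their median was 4 in 300 bases, against 13 over all genes, and none of the 37 held 21 or more, as 5884 of the 17492 genes did. Across all genes openness went with CpG number. No library had an open end in 96.2% of genes with 0 to 2 sites, 89.1% with 3 to 5, 71.0% with 6 to 10 and 36.4% with 11 to 20. The counts of members open in no library were 6 of 8, 7 of 14, 4 of 9 and 2 of 6 in these bins. Genes open in all 9 libraries had a median of 24 sites, while Trim21 had 3, in a bin in which 2.92% of genes were open in all 9. The shares of genes open in all 9 libraries were 0.954%, 2.92%, 7.92% and 26.3% in the bins from 0 to 2 up to 11 to 20 sites. The members so open were 0 of 8, 1 of 14, 0 of 9 and 0 of 6. Set beside genes with as few CpG sites, up to 10, the members were open in some library more often and in all 9 similarly seldom. Their lower share open in all 9 was thus seen beside all genes, and not beside genes with up to 10 sites. No test was made of these comparisons.

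**Figure D5:**
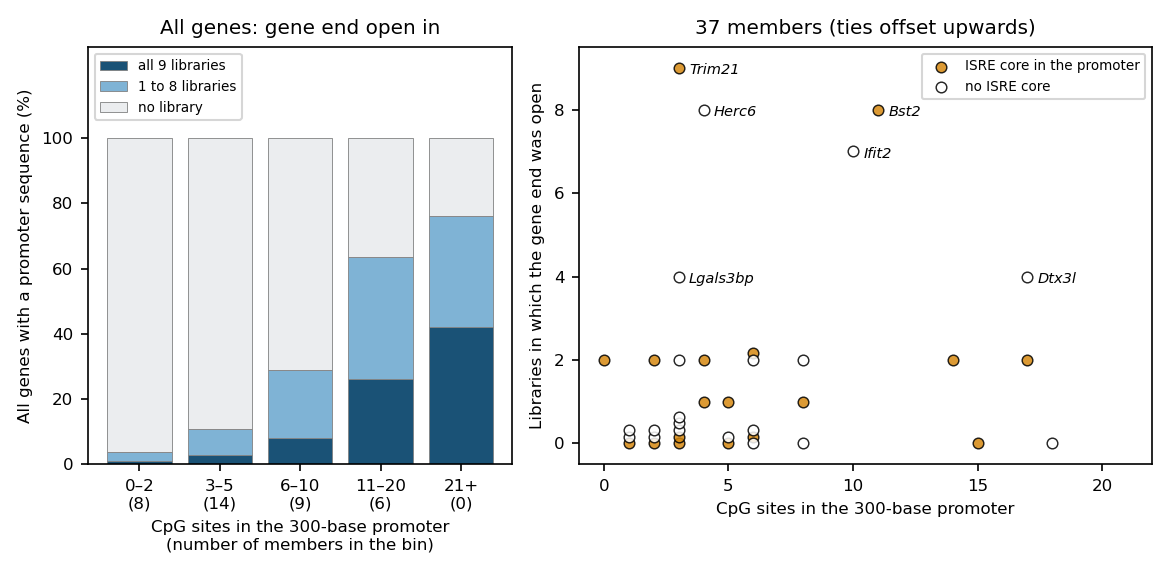
Left, all genes with a promoter sequence by number of CpG sites in 300 bases, with the percentage open at a gene end in all 9, 1 to 8 and no library, and under each bin the number of members it holds. Right, number of libraries in which the end of each of 37 members was open against its number of CpG sites, with filled points for promoters holding an ISRE core. The share of open genes climbs with CpG sites on the left, while Trim21, Herc6 and Bst2 stand high on the right at 3, 4 and 11 sites.

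Of 37 other genes of the interferon response with a match, 9 were open in all 9 libraries (24.3%, against 20.1% of all genes), 10 in some and 18 in none (48.6%, against 55.8%). Both shares are near those of all genes. Those open throughout were the kinases Jak1, Jak2 and Tyk2, the receptor gene Ifnar1, the factors Stat2 and Irf1, the feedback inhibitors Socs1 and Socs3, and Ifit1bl1. The chemokine genes Cxcl9, Cxcl10 and Ccl5, the class II transactivator Ciita, and Gbp2b and Gbp10 were open in none. Other signalling genes were open in part of the libraries, with the receptor chains Ifnar2 in 6 and Ifngr2 in 3, and the factors Irf9 in 2 and Irf7 in 1. Between 11 and 17 of the 37 were open in a B16_IFNg library, 12 or 13 in a Res499 library and 12 to 14 in a B16_untreated library. None was open in all libraries of one group and none of another in any pair of groups, and 0 of the 19 with an open end had an exact p under 0.05 for both groups against B16_untreated.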

How the data were processed

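ATAC-seq peaks were deposited by the authors as 1 list per library, called without pooling replicates. CASAVA, cutadapt 1.9, Bowtie2 2.2.4 and MACS2 on GRCm38 (mm10) are named, per the submitters' processing notes. The settings, any transposase shift and any mapping-quality filter are not given in the sources used here. The deposited values per peak are a score, a fold enrichment (a ratio), the −log10 p and −log10 q, and the summit offset. The authors made these values, and they rank and describe peaks within a list only. Each list was shortened to its 9214 best peaks by −log10 p, leaving out chromosome M and unplaced sequence. Summit reads were recovered from fold and −log10 p for 100% of peaks within 0.01. No read counts are used, and the relative depth of 7.59 to 11.1 fragments per kb limits what weak peaks can show.

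Gene positions came from the RefSeq table of GRCm38.p6, which gives no strand and no exons. Shortest peaks of 150 bp or more marked a long fragment class, used as a block in an alternative run. It held B16_IFNg replicate 3, Res499 replicate 3 and B16_untreated replicates 1 and 3. No label names such a batch, and the class was inferred from the peak lists. It was unbalanced across groups and held the B16_IFNg library with 3 weeks of exposure. Mean ranks were tested by exact permutation, two-sided, with Benjamini-Hochberg adjustment over all genes, tested on simulated data. Values in every library are given for the 6 members with the best median rank, those whose open libraries differ by 2 or more between groups, and Isg15, Ifit1, Gbp2, Bst2, Adar and Eif2ak2. Other members named were chosen after their values were seen. The members and lists were chosen with earlier results of these data known. The labels do not say whether replicate numbers pair libraries. Deviations of ranks from the group mean correlated by -0.011 to 0.067 (median 0.029) between same-numbered libraries of different groups. Between other libraries of different groups the range was -0.08 to 0.07 (median -0.008). These values do not decide whether libraries were paired, so the block was run as an alternative only. Alternatives changed the list length, ranking, windows and libraries used. Python 3.11.15, numpy 2.4.6, pandas 2.3.3 and matplotlib 3.10.9 were used.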

Additional observations from a re-analysis of the deposited data

How the results depend on the processing

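The number of members open in all 9 libraries (1) was 2 with all deposited peaks (Trim21 and Bst2), 2 within 2.5 kb (Trim21 and Usp18), 0 with 4607 peaks per library, and 1 to 2 when a library was left out. Members open in no library (30) numbered 17 with all deposited peaks and 30 to 32 with a library left out. Members within 20 kb of a peak in all 9 libraries (12) numbered 5 within 10 kb, and those with none (17) numbered 5 with all deposited peaks. Changes in these counts with longer lists or other windows follow from their construction.

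Lost members of B16_IFNg against B16_untreated (0) were 1 with all deposited peaks and 1 with ranking by fold enrichment (Eif2ak2 in both), and 1 under the rule that allows 1 missing library. Lost members of Res499 against B16_untreated (0) were 1 with all deposited peaks (Ifitm2) and 1 under that rule, and for both groups together 1 under it. With all deposited peaks, 0.525% of all genes were lost and 0.00457% gained in B16_IFNg against B16_untreated. In Res499 against B16_untreated 1.07% were lost and 0.0137% gained, so losses outnumbered gains among all genes too. Leaving out a library gave 0 to 1 lost members for B16_IFNg, for Res499 and for both groups against B16_untreated. It gave 0 to 1 gained members for Res499 against B16_untreated (without B16_untreated replicate 3) and against B16_IFNg (without B16_IFNg replicate 1). Lost counts reached 1 without B16_untreated replicate 1 in all 3 comparisons, and without Res499 replicate 3 for Res499. Leaving out a library lowers the calls a gain or loss needs. The share over all genes was not worked out for the fold ranking, the rule that allows a missing library or the left-out runs. The counts in this paragraph are therefore no result about the members.

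With the replicate number as a block (27 arrangements) 0 members passed the adjusted threshold. The exact p of Ifit2 was 0.037 there, the lowest that 27 arrangements allow. No alternative run gave a member an adjusted p under 0.05. Runs with a block or with a library left out had 27 to 56 arrangements, fewer than the main test. Their smallest possible p was therefore higher, and more genes would have to reach it to pass the adjustment. The absence of adjusted calls in these runs therefore does not show that ranks were equal. The rank difference of Ifit2 was 1446 to 2993 with a library left out and 1479 within fragment classes (exact p = 0.1). It fell from 2389 in the main test to 940 when ranked by fold enrichment (exact p = 0.298). With 4607 peaks per library it was 374 (exact p = 0.333). The Sp100 site lost its exact p under 0.05 when ranked by fold enrichment (-3326 places, p = 0.0952), within fragment classes (-3227 places, p = 0.0667) and with any 1 library left out other than Res499 replicate 2 or B16_untreated replicate 3, whose absence gave p = 0.0357 each. Its rank difference was -3236 in the reported setting and -3945 to -2723 over the libraries left out. The first Sp110 site differed by -201 places when ranked by fold enrichment (exact p = 0.5), against -3503 by −log10 p, and the second by -4498 places (exact p = 0.0714), against -3415. At all 3 sites the difference was -738 to -186 with 4607 peaks per library (exact p = 0.321). These alternatives for sites were chosen after seeing the data, and the cause of the changes was not tested. The median summit held 12.5 to 27.5 reads at open members, so weaker sites could be missed at this depth.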
